A study of Mus musculus with 3 samples.

Results

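The 9 genes that had led a group of hepatocyte nuclei made only of STZ-HFHC nuclei were followed over the nuclei classes and libraries of the mouse liver, namely Ephb2, Nrg1, Rad51b, Hormad2, Themis, Prrg4, Slc35f2, Osbpl3 and Sybu. They are 9 of the 32285 features of the count matrices, and all 9 were matched by gene symbol. They were selected on their UMI counts in these same nuclei, which stood above those of the other nuclei, so every level, ratio and rank in hepatocyte-like nuclei given here is a description and none is a test.

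Single-nuclei RNA sequencing (sNuc-Seq) was performed on frozen liver of 1 mouse on a normal diet (ND) and 2 STZ-HFHC mice, a model of fibrosis in MASH (called mouse 1 and mouse 2 here, and STZ-HFHC 1 and 2 in the plots), all male C57BL/6 J mice, with 1 library per mouse. MASH is metabolic dysfunction-associated steatohepatitis. The STZ-HFHC mice had received 0.2 mg of streptozotocin, a toxin of insulin-producing cells, at 3 days of age and a high-fat, high-cholesterol diet from 4 weeks of age. The age of the sequenced mice at sampling was not given in the sources used here. With 1 ND mouse there is no spread for the control, so mouse, library and condition cannot be told apart. The codes in the sample titles also differ between ND and STZ-HFHC, and between the STZ-HFHC mice. What these codes mean is not given in the sources used here.

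The 9 genes come from unlike pathways. Eph receptors and neuregulins carry signals between neighbouring cells through receptor tyrosine kinases, Rad51b acts in repair of DNA by homologous recombination, HORMA domain proteins sit on the axis of meiotic chromosomes, and THEMIS is known from the selection of T cells in the thymus. Hepatocytes along the lobule differ by position, with glutamine synthetase and bile acid and drug enzymes near the central vein, and urea cycle and gluconeogenic enzymes near the portal tract.

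After barcodes with over 5000 genes or over 5% mitochondrial counts were left out, 8494 nuclei of ND, 8921 of mouse 1 and 10921 of mouse 2 remained. Clustering without the 9 genes gave 5426 hepatocyte-like nuclei in ND, 2997 in mouse 1 and 4803 in mouse 2, with a median of 4014.5, 7925 and 6543 unique molecular identifiers (UMIs). Nearly all ND and STZ-HFHC hepatocyte-like nuclei lay in separate clusters, where at most 3 nuclei per cluster came from a library of the other condition. The exception was 1 small cluster led by interferon-induced genes with 30, 28 and 44 nuclei. Between 29 and 32 barcode sequences were shared by each pair of libraries. The 10 hepatocyte marker genes were also read at high levels in all other classes, at 75.5% to 91.0% of their hepatocyte level in ND and 44.7% to 87.3% in STZ-HFHC, so no class was taken as free of hepatocyte RNA. Another 106, 1726 and 1550 nuclei stayed unnamed. Among these, a cluster led by mitochondrial genes (7, 651 and 342 nuclei) had 4 of 10 hepatocyte markers raised against other clusters. An unnamed cluster of low depth (6, 336 and 222 nuclei) had all 10 raised over nuclei of non-hepatocyte clusters. Whether these nuclei are hepatocytes was not tested, and more of them came from STZ-HFHC than from ND. UMI sums are given as CPM, that is, scaled to the same total of UMIs in every set of nuclei, and the intervals cover counting error only, not the spread between mice.

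The 9 genes lie on 9 chromosomes of the mouse genome (GRCm38, GENCODE M21), all are protein coding, and the features that overlap them in the annotation are 1 lincRNA, 1 snRNA and 3 pseudogenes, all on the opposite strand and none among the tested genes. They were long genes: the median span was 162.9 kb, beside 23.9 kb over 14834 tested genes with an annotation and 35.1 kb over the 1235 genes higher in STZ-HFHC by the rule of size given with the levels. Nrg1 spanned 1069 kb and Rad51b 517 kb, longer than 99.7% and 98.7% of tested genes, while Prrg4 with 19.1 kb was near the middle. Nuclear RNA holds unspliced transcripts, and whether reads in introns were counted is not given in the sources used here.

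RefSeq promoter sequences were found for 7 of the 9 genes, and not for Nrg1 and Sybu. Those of 4 genes are shown because they span the range of the set, from the CG-rich start of Ephb2, the gene with the largest mean ratio to ND, to the CG-poor start of Themis, the gene with the largest pericentral to periportal ratios. Each run gives the 250 bases before the RefSeq start site in the direction of transcription (GRCm38.p6), with matches to the motifs searched in capitals. Rad51b and Themis each have a pair of RefSeq starts, and the windows of the first are shown.
Ephb2, chr4:136836013-136836262, minus strand: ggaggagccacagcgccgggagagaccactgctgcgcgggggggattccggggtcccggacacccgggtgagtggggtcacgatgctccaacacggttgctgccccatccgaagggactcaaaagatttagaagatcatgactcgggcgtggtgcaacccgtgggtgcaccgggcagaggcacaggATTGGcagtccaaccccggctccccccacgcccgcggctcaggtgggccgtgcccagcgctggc
Osbpl3, chr6:50456171-50456420, minus strand: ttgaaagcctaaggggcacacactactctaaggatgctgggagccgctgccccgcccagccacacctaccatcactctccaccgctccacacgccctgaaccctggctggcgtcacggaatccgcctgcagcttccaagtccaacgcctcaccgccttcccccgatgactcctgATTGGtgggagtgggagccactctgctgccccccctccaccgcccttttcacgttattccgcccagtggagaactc
Rad51b, chr12:79297032-79297281, plus strand: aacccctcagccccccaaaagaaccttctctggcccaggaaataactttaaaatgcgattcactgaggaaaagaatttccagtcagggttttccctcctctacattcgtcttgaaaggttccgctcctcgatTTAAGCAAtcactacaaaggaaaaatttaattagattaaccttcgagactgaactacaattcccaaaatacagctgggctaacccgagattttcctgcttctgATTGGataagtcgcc
Themis, chr10:28668110-28668359, plus strand: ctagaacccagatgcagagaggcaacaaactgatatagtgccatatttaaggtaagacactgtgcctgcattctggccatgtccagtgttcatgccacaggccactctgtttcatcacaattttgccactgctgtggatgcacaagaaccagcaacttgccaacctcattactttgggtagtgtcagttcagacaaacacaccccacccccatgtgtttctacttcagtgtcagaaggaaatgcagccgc

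The capitals mark CCAAT boxes, which lay 64 bases before the start site in Ephb2, 76 in Osbpl3 and 15 in Rad51b, and in Rad51b a C/EBP motif 118 bases before it. Counted from the second start of Rad51b, they lay 84 and 187 bases before it, in a window with 44.8% G and C and 9 CG pairs. The 7 motifs were searched on both strands in the 250 bases. CCAAT was in 3 of the 7 genes and in 33.9% of 32851 promoters, and the C/EBP letters TTGCNNAA were in 1 of 7 and in 9.56%. The AP-1 letters TGANTCA (6.75% of promoters), the STAT letters TTCNNNGAA (7.02%), the TEAD letters GGAATG (12.6%), the E-box CACGTG (6.02%) and the TATA letters TATAAA (12.4%) were in none of the 7 windows. The windows differed in composition, with 68.4% G and C and 20 CG pairs in Ephb2, 62.8% and 13 in Osbpl3, 62.4% and 10 in Hormad2, 44.8% and 9 in Prrg4, 42.8% and 7 in Rad51b, 47.6% and 3 in Slc35f2 and 48% and 1 in Themis, beside medians of 52.4% and 6 over all promoters. No motif searched was common to the set, and a match is a description of letters only.

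All 9 genes were higher in the hepatocyte-like nuclei of both STZ-HFHC mice than in ND, by 5.58-fold to 328-fold in single mice. Their ratios spread widely, with Ephb2 and Nrg1 far above the other 7 genes, which lay between 5.58-fold and 22.7-fold in single mice. Both STZ-HFHC levels lay above the ND level in every one of them, as the plot of levels by library shows.

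**Figure D1:**
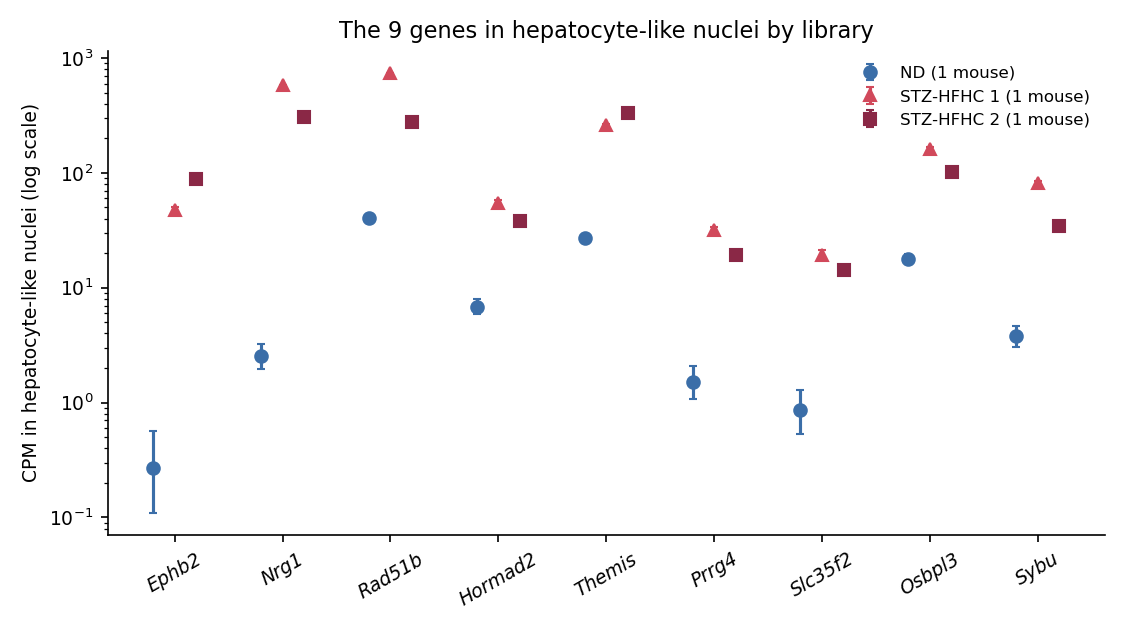
CPM of each of the 9 genes (log scale) in hepatocyte-like nuclei of ND (circles), STZ-HFHC 1 (triangles) and STZ-HFHC 2 (squares), with exact 95% Poisson intervals. The ND point lies lowest for every gene, from 0.272 CPM for Ephb2 to 40.7 CPM for Rad51b, and Ephb2 and Themis are the genes with the STZ-HFHC 2 point on top.

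Ephb2 (ENSMUSG00000028664, chr4:136647539-136835988) encodes an Eph receptor tyrosine kinase that binds ephrin-B ligands on neighbouring cells. It stood at 0.272 CPM in ND (95% interval 0.109 to 0.560), at 47.8 CPM in mouse 1 and at 89.2 CPM in mouse 2. The ND level rested on 7 UMIs in 7 of 5426 nuclei, beside 604 of 2997 and 1331 of 4803 nuclei with a UMI in the STZ-HFHC mice. The mean log2 ratio to ND was 7.81 ± 0.64 (SD, n = 2 mice), and the low ND count leaves a wide counting interval of 85.1-fold to 438-fold in mouse 1. It was 5.16 when the hepatocyte nuclei were taken as the 33% highest in summed hepatocyte markers in place of clusters, 7.10 when nuclei were thinned and 7.13 with 5 added to each count.

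Nrg1 (ENSMUSG00000062991, chr8:31814551-32884029) encodes neuregulin 1, a growth factor with an EGF-like domain that binds ERBB3 and ERBB4. Its level was 2.53 CPM in ND, 578 CPM in mouse 1 and 304 CPM in mouse 2. A UMI was found in 1.14% of ND nuclei and in 67.4% and 51.6% of STZ-HFHC nuclei, that is, in most STZ-HFHC nuclei. The mean log2 ratio was 7.36 ± 0.65 (SD, n = 2 mice), and 6.32 with nuclei taken by summed markers.

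Rad51b (ENSMUSG00000059060, chr12:79297282-79814690), a gene of homologous recombination, was read in both groups. It stood at 40.7 CPM in ND, 734 CPM in mouse 1 and 275 CPM in mouse 2, and its mean log2 ratio was 3.46 ± 1.00 (SD, n = 2 mice). This was the largest spread between the STZ-HFHC mice in the set, with mouse 2 at 0.374 of mouse 1.

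Hormad2 (ENSMUSG00000020419, chr11:4345814-4441105) encodes a HORMA domain protein that marks unsynapsed chromosome axes in meiosis. Its level was 6.84 CPM in ND, 54.9 CPM in mouse 1 and 38.1 CPM in mouse 2, with a mean log2 ratio of 2.74 ± 0.37 (SD, n = 2 mice), the smallest of the 9.

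Themis (ENSMUSG00000049109, chr10:28668360-28883818), a gene of T cell receptor signalling in thymocytes, stood at 27.2 CPM in ND, 260 CPM in mouse 1 and 329 CPM in mouse 2. Its mean log2 ratio was 3.43 ± 0.24 (SD, n = 2 mice), the smallest spread between mice in the set, and it was 4.19 without the ND cluster led by pericentral genes. The levels of T cell markers in the same nuclei are given with the other classes.

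Prrg4 (ENSMUSG00000027171, chr2:104830741-104849876) encodes a transmembrane protein with a domain rich in gamma-carboxyglutamic acid. It stood at 1.52 CPM in ND, 31.7 CPM in mouse 1 and 19.3 CPM in mouse 2, or 4.01 ± 0.50 as the mean log2 ratio (SD, n = 2 mice). Slc35f2 (ENSMUSG00000042195, chr9:53771538-53818154), a solute carrier known for taking up the drug sepantronium, had few UMIs in ND. Its level was 0.855 CPM in ND, from 22 UMIs, and 19.4 CPM and 14.2 CPM in mouse 1 and mouse 2, or 4.25 ± 0.32 as the mean log2 ratio (SD, n = 2 mice).

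Osbpl3 (ENSMUSG00000029822, chr6:50293330-50456201) encodes a member of the oxysterol-binding protein family, which exchanges lipids between membranes. It was at 17.8 CPM in ND, 162 CPM in mouse 1 and 102 CPM in mouse 2, or 2.85 ± 0.47 as the mean log2 ratio (SD, n = 2 mice), and 2.21 with nuclei taken by summed markers. Sybu (ENSMUSG00000022340, chr15:44671856-44788063) encodes syntabulin, which links mitochondria and vesicles to the kinesin-1 motor. Its level was 3.77 CPM in ND, 81.8 CPM in mouse 1 and 34.4 CPM in mouse 2, or 3.81 ± 0.88 as the mean log2 ratio (SD, n = 2 mice).

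The STZ-HFHC mice were not alike for these genes. Of the 9 genes, 7 were lower in mouse 2 than in mouse 1, at 0.374 (Rad51b) to 0.732 (Slc35f2) of the level. Ephb2 and Themis were higher in mouse 2, at 1.87 (95% counting interval 1.75 to 1.99) and 1.26 (1.23 to 1.30) times the level. No counting interval of these 9 ratios reached 1.

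A rule of size stood in for a test of all genes: at least 2-fold higher, or at least 2-fold lower, in mouse 1 and in mouse 2 alike, with at least 50 UMIs over the 3 libraries. All 9 genes passed it as higher, and 1235 of 14847 tested genes did (8.32%), while 807 (5.44%) were lower. At 4-fold all 9 still passed, beside 2.44% of tested genes higher and 0.754% lower. The 9 were picked for this contrast, so nothing is read from their count. Ranked by the smaller of both ratios, Ephb2 was number 3 and Nrg1 number 7 of 14847, Slc35f2, Prrg4, Themis, Sybu and Rad51b were numbers 62, 79, 107, 114 and 175, and Osbpl3 and Hormad2 were numbers 222 and 229. The median of the mean log2 ratios was 3.81 over the 9 genes and 0.09 over all tested genes. Scaling by the median of ratios in place of CPM moved the latter to -0.03 and the split of all genes past the rule from 1235 higher and 807 lower to 1030 higher and 1056 lower (60.5% and 49.4% higher). The median over the 9 genes was then 3.69.

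Single nuclei with UMIs of several of the genes were found in the STZ-HFHC mice and almost never in ND. The genes were selected on their counts in these nuclei, so these shares restate the selection and are a description. Whether the genes were found together more often than their single rates would give was not tested. Each nucleus was thinned to 2000 UMIs, and 832, 98 and 141 shallower nuclei of ND, mouse 1 and mouse 2 were left out. At least 3 of the 9 genes were then found in 1 of 4594 ND nuclei (0.0218%), in 814 of 2899 mouse 1 nuclei (28.1%, exact 95% interval 26.4 to 29.8) and in 909 of 4662 mouse 2 nuclei (19.5%, 18.4 to 20.7). At this depth no gene was found in 82.9% of ND nuclei, and in 13.0% and 24.5% of STZ-HFHC nuclei. Nrg1 was then found in 0.479% of ND nuclei and in 41.1% and 29.0% of STZ-HFHC nuclei, and Themis in 4.66%, 28.8% and 35.5%. Rad51b was found in 7.64%, 55.1% and 32.2%, so single nuclei without a UMI of a gene were common even in STZ-HFHC. Unthinned, a UMI of Rad51b was found in 81.1% and 58.9% of STZ-HFHC nuclei and in 14.4% of ND nuclei.

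**Figure D2:**
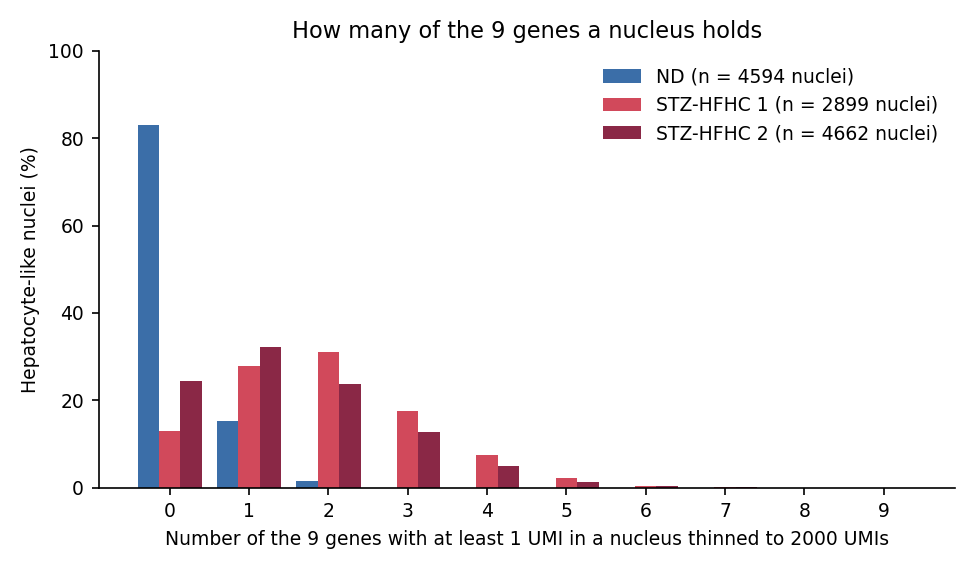
Percent of hepatocyte-like nuclei, each thinned to 2000 UMIs, by the number of the 9 genes with at least 1 UMI, in ND (4594 nuclei), STZ-HFHC 1 (2899) and STZ-HFHC 2 (4662). ND nuclei pile up at 0 (82.9%), while STZ-HFHC 1 nuclei are most often at 2 (31.2%) and STZ-HFHC 2 nuclei at 1 (32.3%).

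The same count was taken in classes that are not hepatocytes, and the part of free RNA or of doublets, which were kept, was not tested. In a second draw at the same depth, which gave 29.1% and 19.2% in hepatocyte-like nuclei of mouse 1 and mouse 2, at least 3 of the genes were found in 9.61% of endothelial-like nuclei of mouse 1 and 11.6% of mouse 2, and in 7.76% and 6.95% of macrophage-like nuclei. In ND, 0 of 882 endothelial-like nuclei had 3, which allows a share of up to 0.340%. The hepatocyte-like share was above that of both classes in each STZ-HFHC mouse. In T or NK cell-like nuclei the shares were 21.6% of 74 nuclei (12.9 to 32.7) and 10.1% of 99 nuclei (4.95 to 17.8), and in cholangiocyte-like nuclei they were 18.0% of 61 nuclei and 5.66% of 53 nuclei. In mouse 1 the exact 95% intervals of both these classes overlapped that of hepatocyte-like nuclei (27.5 to 30.8). Among STZ-HFHC hepatocyte-like nuclei, the 36 pairs of genes were only weakly related over single nuclei, with Pearson's r of log counts between -0.0794 and 0.258 in mouse 1 (highest for Nrg1 and Rad51b) and between -0.00327 and 0.168 in mouse 2 (highest for Ephb2 and Nrg1). These nuclei share 1 library and sparse counts, so the values are a description only.

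Nearly all STZ-HFHC hepatocyte-like nuclei lay in 3 clusters, which held 54.2%, 27.3% and 17.7% of them in mouse 1 and 39.2%, 43.2% and 16.4% in mouse 2. The first, with 1623 and 1885 nuclei, had Trib3, Cyp2a4 and Cidec among its leading genes, which belong to stress signalling, drug metabolism and lipid droplets. The second, with 817 and 2077 nuclei, was led by Sult1e1, Cyp2b10 and Sds, and the third, with 529 and 789 nuclei, by Slc1a2 and the pericentral gene Glul. In the first, 9 of 25 hepatocyte and zone markers, and 6 of the 10 hepatocyte markers, were raised over nuclei of its main library in non-hepatocyte clusters. These were clusters named as another class or mixed between classes. Against the median of all other clusters, 0 of the 10 hepatocyte markers were called raised, so the hepatocyte label rests on few markers. Although the 9 genes had been left out of clustering, 8 of them were among the first 12 genes of the Trib3-led cluster when all genes were ranked by fold over other nuclei, with Nrg1 first and Ephb2 second, and Themis was number 27 of 7262. This is how the genes had been picked, so the ranks are no finding.

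The Sult1e1-led cluster had the lowest level of 7 of the 9 genes in mouse 1 and of 8 in mouse 2. Ephb2 stood there at 17.9 CPM in mouse 1 and 37.2 CPM in mouse 2, against 64.7 CPM and 148 CPM in the Trib3-led cluster. Nrg1 went from 850 CPM in the Trib3-led cluster of mouse 1 to 304 CPM in the Sult1e1-led and 167 CPM in the Glul-holding cluster. In mouse 2 it went from 454 CPM to 207 CPM and 196 CPM. All of these Nrg1 levels were far over the 2.36 to 2.55 CPM of the 3 large ND clusters.

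**Figure D3:**
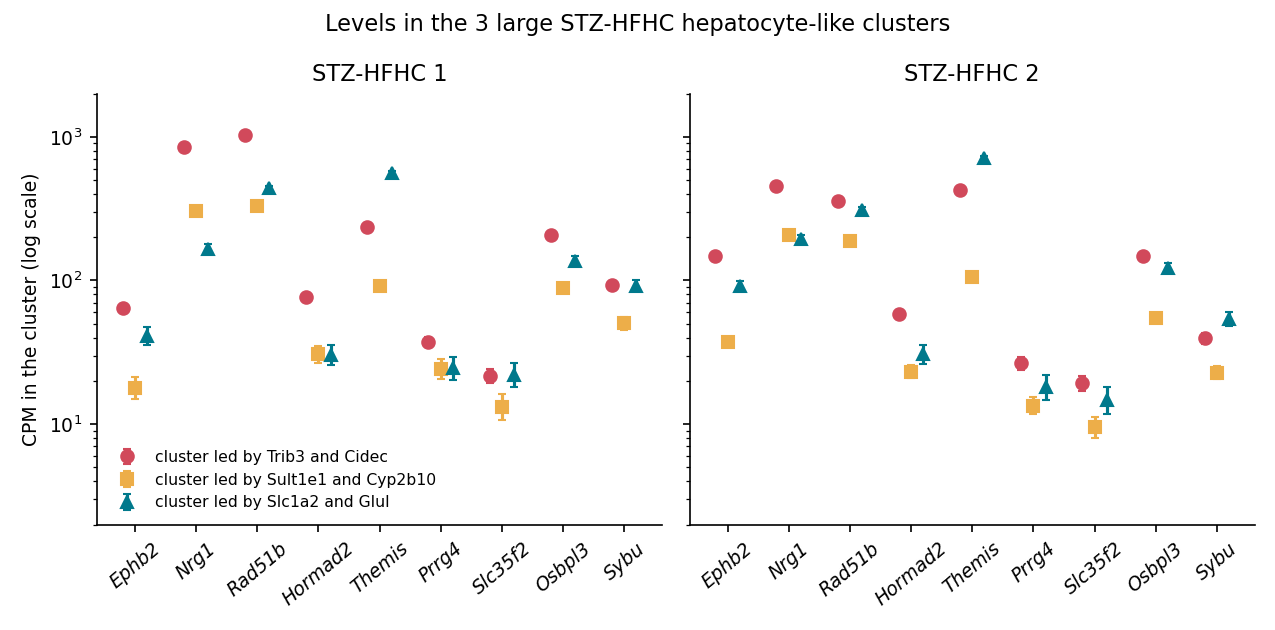
CPM of the 9 genes (log scale) in the 3 large hepatocyte-like clusters of STZ-HFHC 1 and STZ-HFHC 2, with exact 95% Poisson intervals. The Trib3-led cluster lies on top for 7 of the 9 genes in each mouse, and Themis is highest in the cluster led by Slc1a2 and Glul, at 559 and 715 CPM.

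Themis had another order. Its level was 559 CPM and 715 CPM in the Glul-holding cluster of mouse 1 and mouse 2, 237 CPM and 424 CPM in the Trib3-led cluster, and 91.7 CPM and 105 CPM in the Sult1e1-led cluster. Within ND it was also uneven, at 91.4 CPM in the pericentral cluster led by Sgcz, Lgr5 and Glul, 26.0 CPM in the cluster led by Mup genes and 13.8 CPM in the largest cluster. The ND pericentral level was thus close to the 91.7 CPM of the Sult1e1-led nuclei of mouse 1.

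A score of 8 pericentral against 8 periportal genes, taken at 2000 UMIs per nucleus, split the hepatocyte-like nuclei of each library into tertiles. The cuts lay at -1.58 and 1.0 in ND, -1.22 and 0.585 in mouse 1 and -2.0 and 0.0 in mouse 2. A tertile is thus not the same range of scores in each library. In ND, mouse 1 and mouse 2, 101, 198 and 137 nuclei had no UMI of these genes and scored 0, the upper cut of mouse 2. Those of ND and mouse 1 fell in the middle tertile, so this tertile was not read as a position in the lobule. Themis was higher at each step towards the central vein in all 3 libraries, from 5.95 to 14.4 to 63.6 CPM in ND, from 98.5 to 214 to 462 CPM in mouse 1 and from 102 to 275 to 617 CPM in mouse 2. The pericentral tertile thus had 10.7, 4.69 and 6.06 times the periportal level, with intervals apart in each library. Hormad2 and Sybu ran the other way in ND: Hormad2 went from 11.7 to 6.06 to 2.43 CPM and Sybu from 5.95 to 2.40 to 2.30 CPM towards the central vein. In the STZ-HFHC mice the pericentral to periportal ratio was 0.784 and 1.54 for Hormad2, against 0.208 in ND, and 1.37 and 2.13 for Sybu, against 0.387 in ND. The Sybu ND values rest on 48 and 18 UMIs in the outer tertiles.

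Among the other 6 genes, Nrg1 was highest in the middle tertile of both STZ-HFHC mice, at 862 CPM and 404 CPM, and its pericentral to periportal ratio was 0.496 in mouse 1 and 1.17 in mouse 2. The middle tertile of mouse 1 held pericentral genes at 482 CPM and periportal genes at 808 CPM, summed. Its periportal tertile held 213 and 2260 CPM, and its pericentral tertile 3434 and 229 CPM. Rad51b was highest in the middle of mouse 1 at 1020 CPM, beside 585 and 599 CPM in the outer tertiles, and was level between the middle and pericentral tertiles of mouse 2, at 315 and 321 CPM. Ephb2 was lowest in the periportal tertile of both mice, at 30.3 and 38.3 CPM, and reached 66.8 CPM in the middle of mouse 1 and 122 CPM in the pericentral tertile of mouse 2. Its pericentral to periportal ratio was 1.55 in mouse 1 and 3.19 in mouse 2, with intervals apart in both and above the ratios of Hormad2 and Sybu in the same mice. Osbpl3 was higher in the pericentral tertile of ND and mouse 2, by ratios of 2.05 and 2.47, while the intervals overlapped in mouse 1 (1.10). The score is a range: 676, 487 and 829 nuclei lay within 0.25 of a cut.

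**Figure D4:**
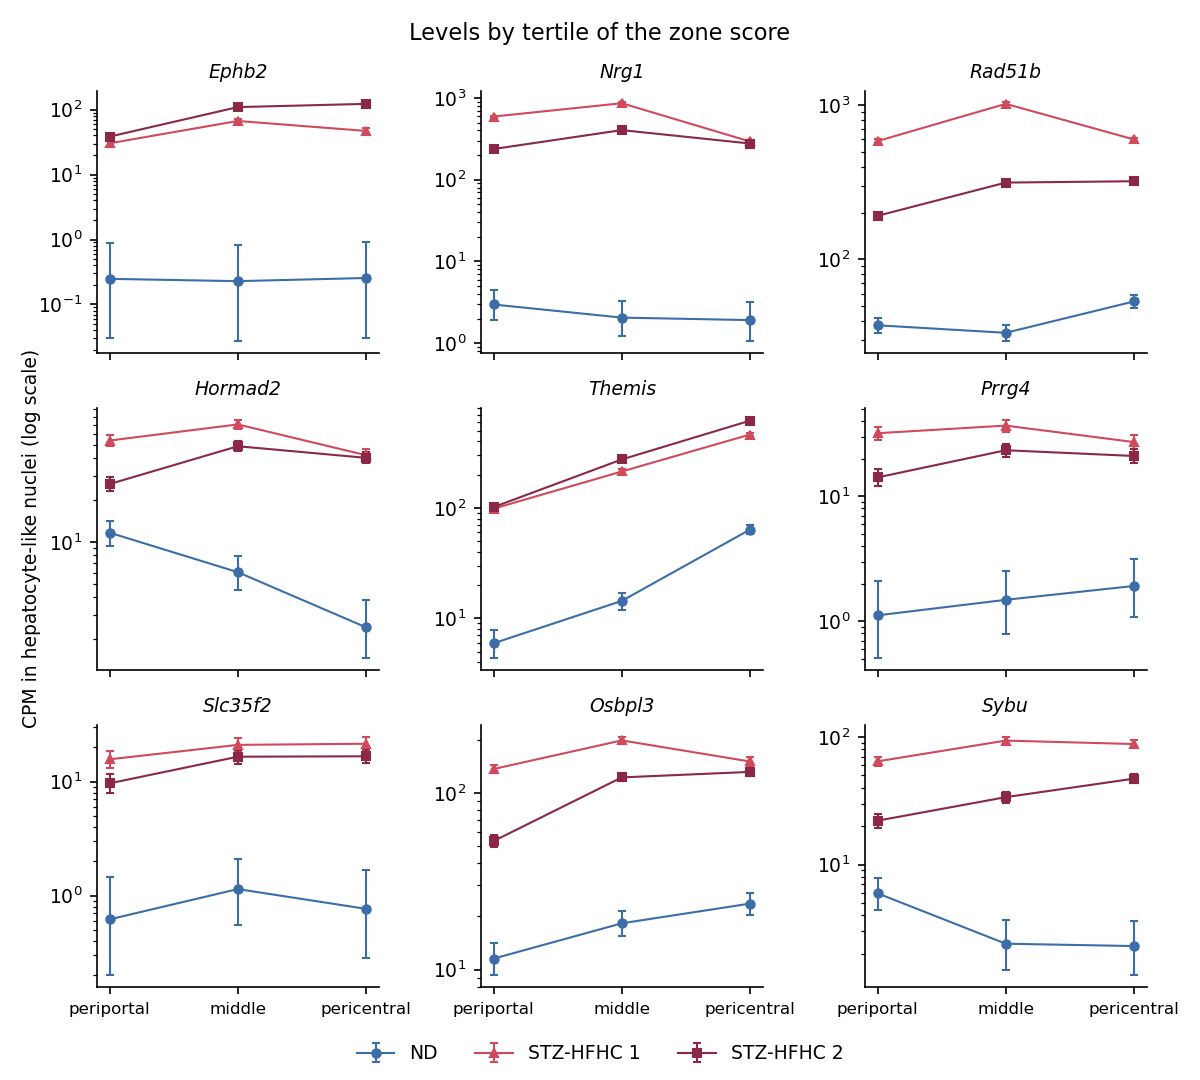
CPM of each of the 9 genes (log scale, exact 95% Poisson intervals) in the periportal, middle and pericentral tertile of hepatocyte-like nuclei of ND, STZ-HFHC 1 and STZ-HFHC 2. Themis climbs in all 3 lines, Hormad2 and Sybu fall towards the central vein in ND, and every STZ-HFHC point lies above the ND points of its panel.

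The levels spanned a narrower range over depth than over zones, where pericentral to periportal ratios ran from 0.496 to 6.06 in the STZ-HFHC mice. Between the shallowest and the deepest tertile of nuclei, with median depths of 4426 and 14061 UMIs in mouse 1 and 4272.5 and 11138 in mouse 2, the ratio of deep to shallow levels was 0.792 to 1.57 over the 9 genes and both mice. The largest was Hormad2 in mouse 1, at 61.2 against 38.9 CPM.

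Outside hepatocyte-like nuclei, the genes of the STZ-HFHC mice were mostly read at no more than the share of the hepatocyte markers, which 12 of 63 pairs of a gene and a class exceeded in mouse 1 and 21 of 63 in mouse 2. In ND, where the hepatocyte-like levels were low, 40 of 63 pairs exceeded it, 19 of them with the counting interval. Ephb2, Nrg1, Rad51b and Hormad2 had their highest level in hepatocyte-like nuclei of both STZ-HFHC mice. For Nrg1 in mouse 2 the next class, endothelial-like nuclei with 284 CPM against 304 CPM, overlapped within the intervals, as did the next class for Rad51b and Hormad2 in mouse 2 and for Ephb2 in mouse 1. Ephb2 in ND stood at 3.91 CPM (2.60 to 5.65, from 28 UMIs) in stellate or fibroblast-like nuclei, against 0.272 CPM in hepatocyte-like nuclei. For Nrg1 in ND, with 2.53 CPM in hepatocyte-like nuclei, endothelial-like nuclei had 8.29 CPM (6.34 to 10.6) and stellate or fibroblast-like nuclei 4.33 CPM (2.94 to 6.15). Of the 63 pairs, 5 lay above the share of the hepatocyte markers in both STZ-HFHC mice, counting interval included. Levels at or below that share were not read as expression in the class.

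**Figure D5:**
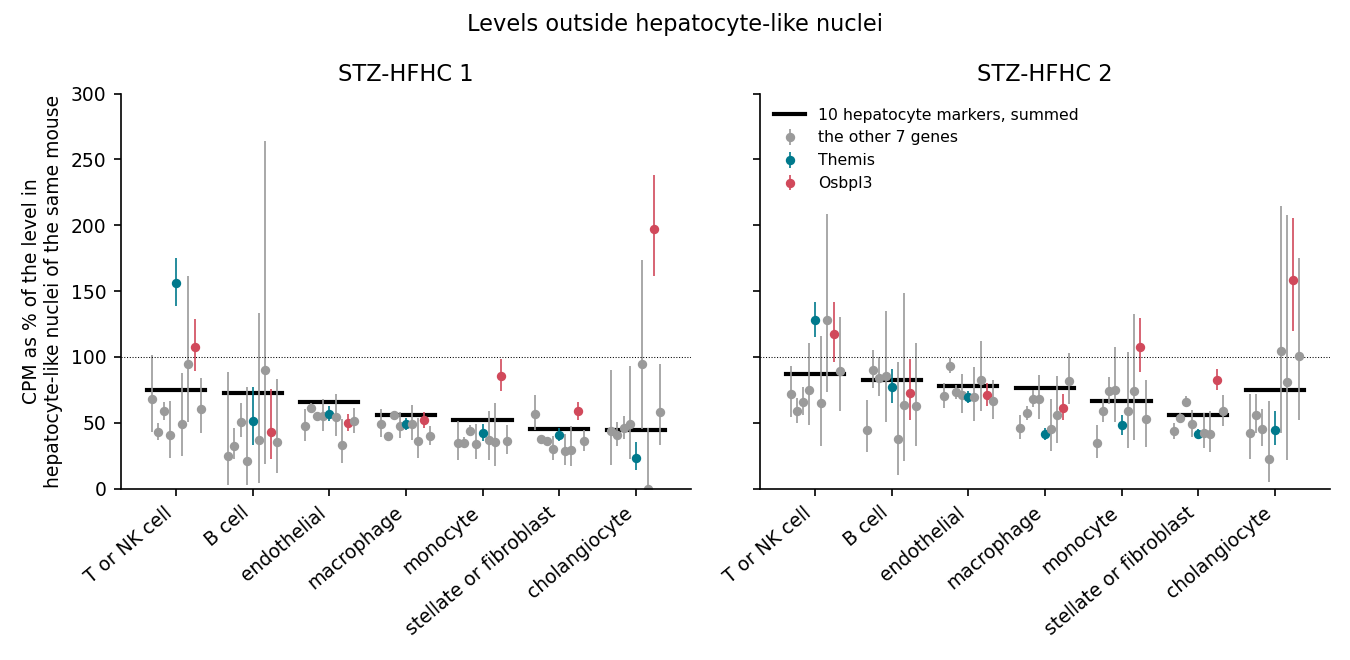
CPM of the 9 genes in 7 classes as a percent of the level in hepatocyte-like nuclei of the same mouse (exact 95% Poisson intervals of the class count), with black bars for the summed hepatocyte markers. Themis in T or NK cell-like nuclei (156% and 128%) and Osbpl3 in cholangiocyte-like nuclei (197% and 158%) stand above the bars of both mice.

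Osbpl3 gave 4 of the 5 pairs. It stood at 320 CPM and 161 CPM in cholangiocyte-like nuclei of mouse 1 and mouse 2, against 162 CPM and 102 CPM in hepatocyte-like nuclei. In T or NK cell-like nuclei it was at 175 CPM and 120 CPM, in monocyte-like nuclei at 139 CPM and 110 CPM, and in stellate or fibroblast-like nuclei at 95.2 CPM and 84.0 CPM. In ND, Osbpl3 was at 59.0 CPM in 34 cholangiocyte-like nuclei, from 9 UMIs, and at 17.8 CPM in hepatocyte-like nuclei.

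The fifth pair was Themis in T or NK cell-like nuclei. Its level there was 395 CPM in ND, 406 CPM in mouse 1 and 421 CPM in mouse 2, a log2 ratio to ND of 0.02 and 0.07, while the hepatocyte-like level went from 27.2 to 260 and 329 CPM. The ND level in T or NK cell-like nuclei rests on 29 UMIs in 54 nuclei. Hepatocyte markers stood there at 90.7%, 75.1% and 87.3% of their hepatocyte level in ND, mouse 1 and mouse 2. The part of free hepatocyte RNA in these Themis levels was not tested. Nor was the difference between the T or NK cell-like and the hepatocyte-like contrast. The 12 T or NK cell markers, summed, stood at 16.1, 21.6 and 30.6 CPM in hepatocyte-like nuclei of ND, mouse 1 and mouse 2, against 3159, 2369 and 1499 CPM in T or NK cell-like nuclei, and none of the 12 was at 0 in hepatocyte-like nuclei. Cd3d, Cd3e and Cd3g together gave 15, 17 and 27 UMIs over all hepatocyte-like nuclei. The summed markers stood at 14.3, 20.9 and 28.8 CPM in hepatocyte-like nuclei with a Themis UMI and at 16.3, 22.5 and 33.7 CPM without. Nuclei with a Themis UMI were also deeper, with medians of 5065, 9075 and 7188 UMIs against 3895, 6708 and 5721. The Cd3 genes together stood at 1.10, 0.663 and 0.620 CPM with a Themis UMI and at 0.521, 0.623 and 1.01 CPM without. The source of Themis in these nuclei was not tested. In the list of THEMIS family and T cell receptor signalling genes, Themis2 and Vav1 of 11 tested were higher, beside 8.32% of all genes. Themis2 stood at 0.43 CPM in ND and at 1.86 and 2.29 CPM in the STZ-HFHC mice, from 11, 49 and 81 UMIs. Macrophage-like nuclei made up 2.81%, 14.7% and 7.82% of the nuclei of ND, mouse 1 and mouse 2. Free RNA of such classes in hepatocyte-like nuclei was not tested.

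Related genes were read from lists by pathway, beside 8.32% of all genes higher and 5.44% lower. None of 11 tested Eph receptors and ephrins besides Ephb2 was past the rule. Efna5 and Efna1, the pair with the most UMIs, stood at 186 and 40.2 CPM in ND, at 266 and 50.1 CPM in mouse 1 and at 256 and 74.1 CPM in mouse 2. Of the ephrin-B ligands, Efnb2 was at 98.7 and 56.6 CPM in endothelial-like nuclei of the STZ-HFHC mice and at 4.18 and 4.58 CPM in their hepatocyte-like nuclei. Ephb4 stood at 13.2, 13.4 and 12.1 CPM in hepatocyte-like nuclei, and Ephb3 had at most 3 UMIs in a library.

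Several EGF family ligands were, like Nrg1, higher in hepatocyte-like nuclei of the STZ-HFHC mice. Whether they were higher in the same nuclei was not tested. Besides Nrg1, 6 of 14 tested neuregulins, EGF ligands and ERBB receptors were higher and none was lower. Areg, the amphiregulin gene, went from 0.31 CPM in ND to 13.0 and 5.17 CPM, Nrg4 from 89.2 to 779 and 1030 CPM, and Btc, the betacellulin gene, from 5.25 to 27.4 and 24.3 CPM. Nrg2, Nrg3 and Hbegf also passed, with Nrg3 at 0.27 CPM in ND and at 1.44 and 1.07 CPM in the STZ-HFHC mice. The ND levels of Areg, Nrg3 and Hbegf rest on 8, 7 and 9 UMIs. Nrg4 was among the leading genes of the Sult1e1-led cluster, where Nrg1 was lower than in the Trib3-led cluster. Of the receptors in hepatocyte-like nuclei, Egfr was at 1397, 1321 and 1907 CPM, Erbb4 at 407, 688 and 669 CPM and Erbb3 at 54.0, 45.1 and 31.2 CPM, none past the rule. Erbb4 was higher in cholangiocyte-like nuclei, at 2610 and 1958 CPM in the STZ-HFHC mice.

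Of genes related to Hormad2, Prrg4, Slc35f2 and Osbpl3, some passed, to be read beside 8.32% of all genes higher and 5.44% lower. Of 9 meiotic axis genes, Smc1b, Trip13 and Rec8 were higher, all at 2.39 CPM or less, and Sycp3 stood at 12.7, 6.04 and 17.4 CPM. Of 13 vitamin K-dependent proteins and enzymes none was higher, and F2, the prothrombin gene, was lower, at 153 CPM in ND and 54.9 and 70.3 CPM in STZ-HFHC. Of 3 tested SLC35F genes Slc35f1 was lower. Of 13 oxysterol-binding protein genes, Osbpl10, Osbpl5 and Osbp2 were higher, Osbpl10 from 1.48 CPM to 11.7 and 5.51 CPM.

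Zone genes as lists stayed within the rule for the most part. None of 8 pericentral genes passed, and Cyp2e1 stood at 494 CPM in ND and at 466 and 322 CPM in STZ-HFHC. Of 8 periportal genes, Aldh1b1 was higher and Hal, the histidine ammonia-lyase gene, was lower at 294 CPM in ND and 82.1 and 130 CPM in STZ-HFHC. Of 18 tested genes of hepatocyte injury and stress, 9 were higher, among them Krt23 (0.43 CPM in ND, 7.86 and 6.70 CPM), Lcn2 (0.19 CPM, 6.57 and 2.06 CPM), Gpc3 (0.35 CPM, 11.7 and 3.05 CPM) and Anxa2 (2.29 CPM, 25.5 and 17.4 CPM), and Cdkn1a was lower. Of 9 proliferation genes, Top2a, Mki67, Ccna2 and Cenpf were higher, all at 1.75 CPM or less.

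Over 22 units of a class and a library with at least 50 nuclei, the genes most like each member were named by Pearson's r of log2(CPM + 1) among 13578 genes. For Nrg1 they were the cytochrome P450 genes Cyp2a22 and Cyp2b9 and the scaffold gene Grip1, with r of 0.982, 0.977 and 0.972. Grip1 was also among the first 3 of Prrg4 (0.96) and Sybu (0.97), and stood at 18.1 CPM in ND hepatocyte-like nuclei and 633 and 446 CPM in STZ-HFHC. For Ephb2 they were Slc20a1, Adam11 and Tmem43 (0.92 to 0.93), and for Themis Tmem43, Trpm7 and Mthfd1l (0.92). Rad51b was most like Exoc4, Gria3 and Zmat3 (0.94 to 0.96), Hormad2 like Ttc39a, Bhlhe40 and Cdh18 (0.92 to 0.93), Osbpl3 like Arfgef1, Gria3 and Spata5 (0.91 to 0.92) and Slc35f2 like Susd6, Nf2 and Ufl1 (0.90 to 0.91). Prrg4 was closest to Cdk8, Grip1 and Ptgfr (0.95 to 0.96), and Sybu to Grip1, Prrg4 and Cdk8 (0.95 to 0.97). Within the set r ran from 0.35 (Hormad2 and Themis) to 0.95 (Nrg1 and Prrg4). Classes of 1 library share free RNA and depth, so these values describe the units and carry no test.

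Neighbouring genes passed the rule at about the share of all genes (8.32% higher and 5.44% lower), so nothing is read from their count. Of the 18 nearest protein-coding genes on either side, 13 had enough UMIs, of which 1, Rab39 beside Slc35f2, was higher (0.78 CPM in ND, 2.89 and 3.02 CPM) and 1, Cycs beside Osbpl3, was lower (12.1, 5.28 and 5.85 CPM). The median log2 ratio of the 13 was 0.46. Next to Rad51b, Zfyve26 at a distance of 0.977 kb stood at 53.5, 83.0 and 86.8 CPM and Zfp36l1 at 252, 145 and 89.4 CPM. Next to Themis, Ptprk stood at 946, 986 and 895 CPM, and next to Nrg1, Wrn stood at 49.8, 60.3 and 48.5 CPM.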

How the data were processed

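Nuclei of frozen liver from 1 ND and 2 STZ-HFHC mice were profiled by 10x sNuc-Seq, and the authors deposited 1 matrix of raw UMI counts per library, made with Cell Ranger 7.0.1 (per the submitters' processing notes, mm10). Nothing in the sources used here says whether intron reads were counted. The files held 9424, 9923 and 11642 barcodes and 77617520, 73942732 and 72934861 UMIs. Barcodes with at least 200 genes, at most 5000 genes and at most 5% mitochondrial UMIs were kept, following the study's filter.

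Counts were clustered without the 9 genes (scanpy 1.11.5, leiden resolution 1) and clusters were named from 12 marker lists. The naming rule was revised after the clusters were seen, by adding a second step. In it a cluster was called hepatocyte-like when at least 3 of 25 hepatocyte and zone markers were at least 1.2 times a comparison level. That level came from nuclei of its main library in clusters named as another class or mixed between classes. Scrublet called 1, 0 and 0 doublets, which is not a working call, so doublets were kept and the 8% with the highest scores were left out as an alternative.

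UMIs were summed per class and library as CPM, with exact 95% Poisson intervals, and shares have exact Clopper-Pearson intervals. Log2 ratios had 0.5 added to each count. With 1 ND mouse no test between conditions was run and no p-value is given, and ± gives the SD over the 2 STZ-HFHC mice. The rule of size was at least 2-fold in the same direction in both mice with at least 50 UMIs. It was checked on simulated counts with known folds, which had counting error only and no spread between mice. The check therefore does not cover differences between mice or the single ND mouse. Named genes were the 9 genes, per list at most 5 past the rule and the 2 with the highest CPM in STZ-HFHC, the 3 most like each gene, the nearest neighbours and the T or NK cell markers. Nrg2, Erbb3, Erbb4, Efnb2, Ephb3, Ephb4 and Cdkn1a fall outside this rule and were named after their values were seen. The 9 genes, the lists and the marker genes were chosen with earlier results of these data known. Alternatives changed the scaling, barcode filter, doublets, resolution, depth, added count, minimum UMIs, fold and mice. Some genes and lists are not reported here.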

Additional observations from a re-analysis of the deposited data

Results flagged for a closer look

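The barcodes left out by the filters, mostly for having more than 5000 genes, were assigned to the nearest cluster and form data outside the comparisons above. In those nearest to hepatocyte-like clusters, the 9 genes summed stood at 1777 CPM in 689 barcodes of STZ-HFHC mouse 1 and at 1313 CPM in 442 barcodes of STZ-HFHC mouse 2. In 333 such barcodes of the ND control they stood at 89.7 CPM (exact 95% Poisson interval 83.6 to 96.1). Both STZ-HFHC values were far over that of the control. Whether these barcodes hold more than 1 nucleus was not tested.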

How the results depend on the processing

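All 9 genes reached the fold of the rule of size under every alternative run, and 4-fold in the main setting. With 1 mouse left out, only the remaining STZ-HFHC mouse had to reach the fold. The minimum of UMIs was not applied to the thinned counts. The genes were picked for this contrast, so nothing is read from their count. The median log2 ratio of 3.81 stayed between 3.66 and 4.19 with both mice. It lay between 3.60 and 4.37 with 1 mouse left out. The 4.19 came without the ND cluster led by pericentral genes (844 nuclei), an alternative chosen after seeing the data, as was clustering with the 9 genes (3.82). Of 90 values of single genes under alternatives, 82 moved by less than the spread between mice and 8 by more, none in the other direction. With the 33% of nuclei highest in hepatocyte markers in place of clusters, log2 ratios were 5.16 for Ephb2, 6.32 for Nrg1, 2.27 for Hormad2, 2.21 for Osbpl3 and 3.86 for Themis. Ephb2 was at 7.10 when thinned and at 7.13 with 5 added to each count, and Themis at 4.19 without the ND pericentral cluster. The share of all genes higher, 8.32%, was 2.44% at 4-fold and 4.83% with at least 500 UMIs, and 10.2% to 12.8% with 1 mouse left out. The share of nuclei with at least 3 genes depended on depth: thinned to 1000 UMIs it was 0.0% in ND and 11.1% and 6.67% in the STZ-HFHC mice, and at 4000 UMIs 0.257%, 54.8% and 38.9%. The number of genes highest in hepatocyte-like nuclei was 4, and 4 to 7 with 1 mouse left out (7 without mouse 2). No paired analysis was possible because the ND library carries no replicate number and the groups share fewer than 2 numbers. The single ND mouse, its differing title code of unknown meaning and free hepatocyte RNA limit all ratios to ND. The low ND counts of Ephb2 (7 UMIs) and Slc35f2 (22 UMIs) limit the ratios of these genes most.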

Other observations

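At a finer clustering (resolution 2), one hepatocyte-like cluster of 1170 STZ-HFHC mouse 1 and 303 STZ-HFHC mouse 2 nuclei held Nrg1 at 1144 and 1228 CPM and Rad51b at 1248 and 699 CPM. In this cluster the level of Nrg1 was close in both mice, whereas over all hepatocyte-like nuclei STZ-HFHC mouse 2 had 0.527 of the Nrg1 level of STZ-HFHC mouse 1. The other large STZ-HFHC hepatocyte-like clusters at this resolution had Nrg1 at 283, 252 and 189 CPM in mouse 1. In mouse 2 they had 207, 309 and 219 CPM, in the same order. The small cluster led by interferon-induced genes such as Rsad2 and Ifit1 held nuclei of all 3 libraries, and Nrg1 stood there at 18.6 CPM in ND, from 3 UMIs in 30 nuclei, and at 981 and 705 CPM in 28 and 44 STZ-HFHC nuclei.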
